A study of Homo sapiens with 12 samples.

Results

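RNA sequencing showed which transcripts differed when chaetocin was given together with MLN8237 rather than MLN8237 without it, across all genes. The comparison takes 6 of the 12 libraries of the series: 3 from cells given 30 nM chaetocin with 90 nM MLN8237, called both compounds here, and 3 from cells given 90 nM MLN8237 without chaetocin. Treatment lasted 24 h and both groups carried MLN8237 at the same dose. The cells were PANC-1, an established line grown from a human pancreatic duct carcinoma, and all libraries come from that 1 line. The other 6 libraries, from cells given vehicle (DMSO) or 30 nM chaetocin, set the same addition without MLN8237 beside it. They also entered the fit, through the filter, the scaling and a shared estimate of spread. Each p-value and call below thus rests partly on them, unless the groups compared were fitted by themselves. The label of the combination spells the second compound MLN3237, which was read as MLN8237 because the treatment protocol names MLN8237. Results are given with all libraries and without MLN8237 replicate 3, which stood apart from the other MLN8237 libraries.

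Chaetocin, made by a fungus, blocks the enzyme SUV39H1, which methylates lysine 9 of histone H3, and also acts on thioredoxin reductase. Methylation of that lysine marks silent chromatin, and thioredoxin reductase keeps protein thiols reduced. Loss of that reducing power is a known trigger of the transcription factor NRF2, which drives genes of glutathione and NADPH supply. MLN8237 (alisertib) inhibits Aurora A, a kinase that matures centrosomes and builds the mitotic spindle.

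Gene counts summed to 55969727, 50004060 and 50678374 in the 3 MLN8237 libraries and 58671039, 55189074 and 55033617 with both compounds. Of 57773 genes in the table, 22831 had enough counts to be tested. MLN8237 replicate 3 differed from replicates 1 and 2 by a chi-square per gene of 114 and 88.2, against 5.35 between those 2, and the 3 libraries with both compounds differed from each other by 23.3 to 35.4. Ribosomal protein symbols, without those of numbered pseudogenes, took 6.18% of counts in MLN8237 replicate 3 and 4.03% and 4.25% in replicates 1 and 2. With both compounds they took 3.16% to 3.83%. Genes with a count numbered 28267 to 28620 with MLN8237 and 31722 to 33443 with both. Whether the libraries of a group came from separate cultures is not in the labels. Their spread, on which every p-value rests, may therefore be technical.

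In the whole comparison 10487 of 22831 genes changed at an edgeR adjusted p under 0.05, or 45.9%. Of these, 5310 (23.3% of genes tested) were higher with both compounds and 5177 (22.7%) were lower. Levels are given as counts per 1000000 (CPM) after TMM scaling, in the order of replicates 1, 2 and 3, and ± after a log2 fold change is its standard error. The gains had the larger log2 fold changes, with a median of 1.07 and 2790 genes beyond 2-fold. For the losses the median was -0.65, with 1056 genes. Direction went with level: at a mean of 0.1 to 1 CPM 29% of genes tested were higher and 5.52% lower. The median over all genes at that level was 0.53. At 100 CPM or more 11.3% were higher and 41.5% lower, with a median of -0.19. Scarce genes can pass the filter through 1 group, so gains and losses were not compared at equal level. Without MLN8237 replicate 3, 10259 of 23643 genes changed (43.4%), 5103 higher (21.6%) and 5156 lower (21.8%). Of the genes higher with all libraries, 4442 (83.7%) were also higher without it, and of those lower, 4524 (87.4%) were also lower. No gene was called in opposite directions. The 3 and 3 libraries did not overlap in 51.3% of genes tested (26.8% higher, 24.5% lower), among them 5049 of the genes called higher and 4824 of those called lower. These shares of called genes are the background for the counts below that come from all libraries. Counts from other fits stand beside the shares of those fits. Without combination replicate 1, 3942 of 23275 genes were higher and 3717 lower. A fit to these 6 libraries by themselves called 3789 of 21688 genes higher and 3456 lower. Since counts are relative to each library's total, and cells were not counted, fewer cells of a kind and less RNA per cell cannot be told apart.

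**Figure D1:**
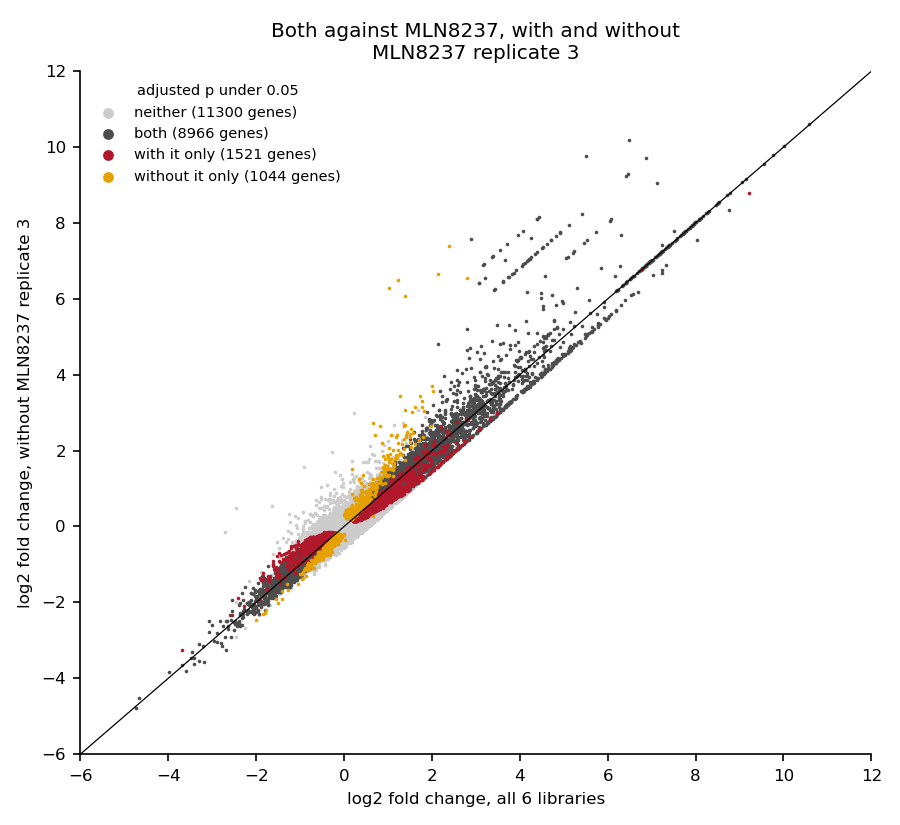
Each point is 1 of 22831 genes, placed by its log2 fold change for both compounds against MLN8237. The horizontal axis keeps all 6 libraries compared and the vertical axis leaves out MLN8237 replicate 3. Both fits also held the vehicle and chaetocin libraries. Dark points (8966 genes) passed both with and without the library, red points (1521) only with the library and orange points (1044) only without it, and the Pearson correlation across genes was 0.968.

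The transcripts of the compounds' known targets were read first. AURKA, which encodes Aurora A (chr20:54944445-54967393, hg19), stood at 234, 251 and 249.01 CPM with MLN8237 and 227, 271 and 242 CPM with both compounds, and the groups overlapped. Its log2 fold change was 0.01 ± 0.09, with an edgeR adjusted p of 0.92 and an adjusted p of 0.93 without MLN8237 replicate 3. SUV39H1, the H3K9 methyltransferase gene (chrX:48553945-48567403), measured 49.1, 47.6 and 55.5 CPM with MLN8237 and 32.6, 43.0 and 36.3 CPM with both compounds. All 3 libraries with both compounds lay below the MLN8237 libraries (log2 fold change -0.44 ± 0.10, edgeR adjusted p = 0.0035, and -0.39 without MLN8237 replicate 3). Its paralogue SUV39H2 moved the other way, with a log2 fold change of 0.27 ± 0.08 and an adjusted p of 0.016. EHMT2, which encodes the H3K9 methyltransferase G9a, had a log2 fold change of -0.33 ± 0.10 with an adjusted p of 0.015. TXNRD1, the cytosolic thioredoxin reductase gene (chr12:104609557-104744061), measured 690.3, 638 and 461 CPM with MLN8237 and 1645, 1775 and 1432 CPM with both compounds. The lowest library with both compounds lay far above the highest of the other group (log2 fold change 1.44 ± 0.14, edgeR adjusted p = 1.2e-05, and 1.27 without MLN8237 replicate 3). Part of its span overlaps other genes.

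Among well-measured genes whose libraries did not overlap and that were also called without MLN8237 replicate 3, the largest gain belonged to MLC1, which encodes a membrane protein best known from astrocytes (chr22:50497820-50524331). It measured 0.0368, 0.124 and 0.132 CPM with MLN8237 and 16.9, 8.13 and 28.4 CPM with both compounds. Combination replicate 2 was the lowest of its group and still lay far above every MLN8237 library (log2 fold change 7.52 ± 0.67, edgeR adjusted p = 6.7e-06, and 7.78 without MLN8237 replicate 3). MUC5AC, a secreted gel-forming mucin of gastric and neoplastic pancreatic epithelium (chr11:1151580-1222364), measured 0.276, 0.186 and 0.615 CPM with MLN8237 and 27.0, 10.5 and 45.1 CPM with both compounds. Its spread between the combination libraries was wide, and its log2 fold change was 6.28 ± 0.68. The cytochrome P450 gene CYP4F11 (chr19:16023177-16045677) rose from at most 0.0439 CPM to 5.46 ± 1.61 CPM (mean ± SD, n = 3).

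MAL, a lipid raft protein of apical transport, had a log2 fold change of 7.12 ± 0.68, and of 9.06 without MLN8237 replicate 3, which held 0.219 CPM against 0.0368 and 0 CPM in replicates 1 and 2. IGFN1 had a log2 fold change of 7.22 ± 0.65. LAMA2 and COL17A1, a laminin chain and a hemidesmosome collagen, rose by 4.54 ± 0.28 and 4.40 ± 0.27. HKDC1, a hexokinase family member, went from 0.813 ± 0.247 to 15.2 ± 2.76 CPM (mean ± SD, n = 3), a log2 fold change of 4.23 ± 0.29. GREB1, known as an oestrogen-responsive gene, rose by 4.29 ± 0.33. The long non-coding RNA LUCAT1 (chr5:90598846-90610219) measured 1.16, 0.682 and 1.32 CPM with MLN8237 and 20.4, 12.3 and 25.2 CPM with both compounds, and its libraries were also well separated (log2 fold change 4.19 ± 0.34, edgeR adjusted p = 3.3e-06, and 4.36 without MLN8237 replicate 3). PRRG2, WDR96, SORCS2, FHAD1 and GRIK5 completed the 15, with log2 fold changes of 5.64, 4.97, 4.53, 4.25 and 4.11. In all 15 of these genes, combination replicate 2 was the lowest library of its group.

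The largest losses by the same rule were led by CCL2, a chemokine that attracts monocytes (chr17:32582304-32584222), at 94.0, 89.9 and 158 CPM with MLN8237 and 11.3, 15.9 and 13.5 CPM with both compounds. MLN8237 replicate 3 was the highest library, and the gap stayed wide without it (log2 fold change -3.07 ± 0.22, edgeR adjusted p = 1.7e-06, and -2.78 without MLN8237 replicate 3). CX3CL1, the membrane-bound chemokine fractalkine (chr16:57406370-57418960), measured 34.5, 36.6 and 41.5 CPM with MLN8237 and 4.64, 7.12 and 3.52 CPM with both compounds, with a log2 fold change of -2.88 ± 0.21. WNT10A, a secreted Wnt ligand, measured 4.94, 5.29 and 5.20 CPM with MLN8237 and 0.825, 0.909 and 0.970 CPM with both compounds, with little spread in either group. ANO9 and ANO8, 2 members of the anoctamin family of channels and scramblases, had log2 fold changes of -2.64 ± 0.12 and -2.33 ± 0.24. The cell adhesion gene PCDH18, the glycosyltransferase gene B3GNT7 and CXXC5 had log2 fold changes of -2.71 ± 0.50, -2.69 ± 0.23 and -2.31 ± 0.26. MT1E, a zinc-binding metallothionein, measured 110.4, 119 and 218 CPM with MLN8237 and 22.5, 35.7 and 32.3 CPM with both compounds. SEMA6B, LDLRAD2, DLK2, ACOXL, C11orf83 and the long non-coding RNA CTD-2562J17.7 had log2 fold changes between -2.31 and -2.11. LDLRAD2 stood at 64.4, 68.4 and 186 CPM with MLN8237, and its log2 fold change went from -2.26 ± 0.46 to -1.60 without replicate 3. ANO8, SEMA6B, DLK2, LDLRAD2 and C11orf83 are among genes whose span overlaps another gene (DDA1, RN7SL121P, ABCC10, HSPG2 and C11orf48). No source used here says whether counting took strand into account, so reads of such pairs cannot be told apart.

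The gene lists were then read, each by the number of members called and by its median. They stand beside 23.3% higher, 22.7% lower and a median of 0.03 over all genes tested. These shares differed with level: at a mean of 100 CPM or more, 11.3% of all genes were higher and 41.5% lower. The plot of lists shows the order of medians. With all libraries, histone, germline, immediate early, NRF2, heat shock and mitotic genes stood at the top, and metallothionein, ribosomal protein, secretory, cholesterol and proteasome genes at the bottom. The histone and germline medians cover only the 50 of 79 and 27 of 78 members that passed the filter. Scarce members could pass it through the group where they were high, so these ranks describe the members that passed. Over all genes tested at a mean of 0.1 to 1 CPM the median was 0.53. Without MLN8237 replicate 3 the proteasome median was -0.19, behind those of endoplasmic reticulum chaperones (-0.36), ductal markers (-0.31) and interferon-stimulated genes (-0.28), and the mitotic median of 0.17 was below that of the integrated stress response (0.22).

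**Figure D2:**
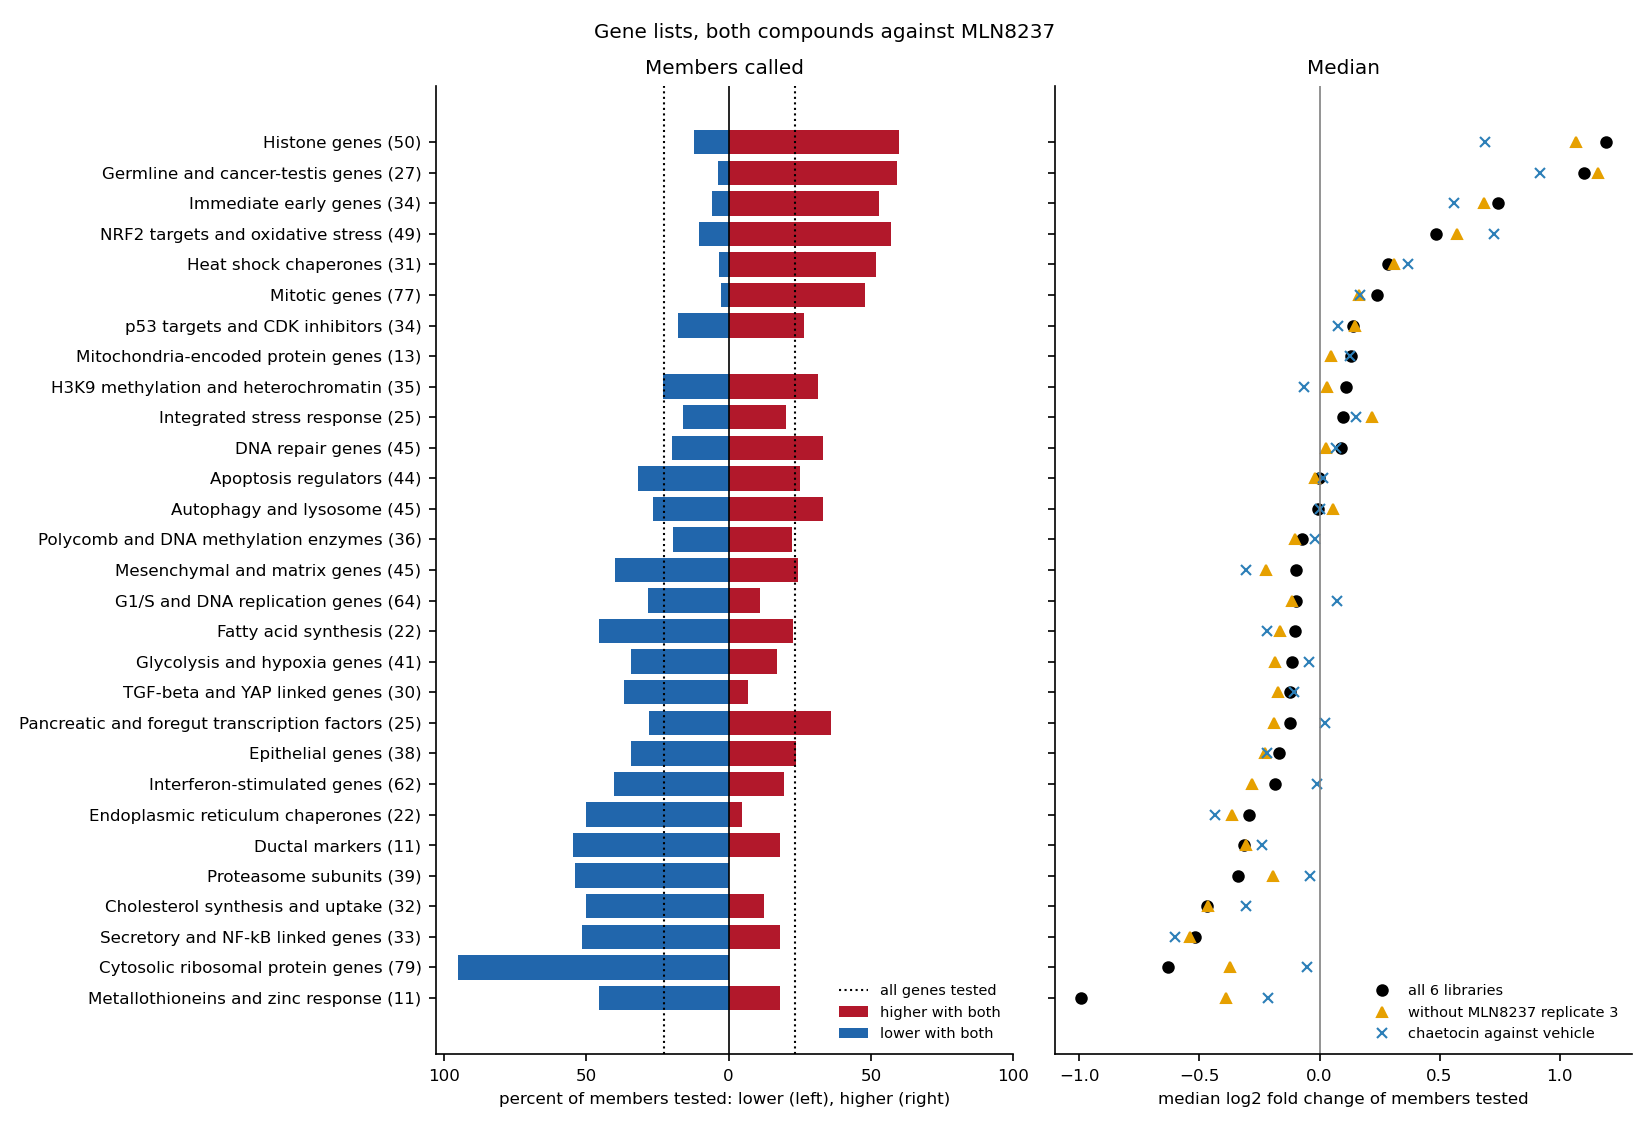
Left, the percentage of each list's members tested (number in brackets) that were higher (red) or lower (blue) with both compounds than with MLN8237, with dotted lines at 23.3% and 22.7% for all genes tested. Right, the median log2 fold change of each list with all 6 libraries, without MLN8237 replicate 3, and for chaetocin against vehicle; the ribosomal protein list moves from -0.63 to -0.37 and the metallothionein list from -0.99 to -0.39 when that library is left out. Lists of fewer than 10 members tested are not drawn.

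Of 49 measured NRF2 targets and oxidative stress genes, 28 were higher with both compounds and 5 lower, with a median log2 fold change of 0.49. Without MLN8237 replicate 3 the counts were 31 and 6 and the median 0.57. GCLM and GCLC encode the subunits of the enzyme that makes the first step of glutathione synthesis. GCLM (chr1:94350761-94374966) measured 106, 101 and 99.7 CPM with MLN8237 and 313, 323 and 297 CPM with both compounds. The 3 libraries of each group lay close together and the groups far apart (log2 fold change 1.60 ± 0.08, edgeR adjusted p = 2.2e-07, and 1.58 without MLN8237 replicate 3). GCLC (chr6:53362139-53481768) measured 55.4, 55.3 and 66.4 CPM with MLN8237 and 204, 208 and 204 CPM with both compounds (log2 fold change 1.80 ± 0.11, edgeR adjusted p = 8.2e-07, and 1.88 without MLN8237 replicate 3). MAFG, a small MAF partner of NRF2, and ABCC2, an export pump for glutathione conjugates, had log2 fold changes of 1.69 ± 0.09 and 3.21 ± 0.23.

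Other members of the list were named after their values were seen, for their known place in the pathway. HMOX1, which encodes haem oxygenase, measured 85.5, 80.9 and 164 CPM with MLN8237 and 702, 614 and 834 CPM with both compounds. MLN8237 replicate 3 had the highest level of its group, and the lowest library with both compounds lay well above it (log2 fold change 2.70 ± 0.28, edgeR adjusted p = 1.8e-05, and 3.09 without MLN8237 replicate 3). SLC7A11, the cystine carrier that feeds glutathione synthesis, rose by 2.16 ± 0.19 on the log2 scale, NQO1 by 0.88 ± 0.15 and the NADPH-producing ME1 by 1.01 ± 0.09. The aldo-keto reductase gene AKR1B10 had no count in any MLN8237 library and measured 2.60, 1.33 and 3.04 CPM with both compounds. The 5 members that fell were SOD2, PRDX6, GSTM1, GPX4 and CAT, which act on superoxide, peroxides or electrophiles. Their log2 fold changes ran from -0.92 for GSTM1 to -0.29 for CAT. AKR1C1 and AKR1C3, both called higher at under 1 CPM, are close copies of each other and may share reads.

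Promoter letters were set beside this list because NRF2 acts through the antioxidant response element, spelled here TGACNNNGC on either strand. Windows of 250 bases before to 50 after the start, from RefSeq (GRCh38.p14), were matched by symbol for 22 of the 28 members that rose. The element was present in 7 of them (31.8%): CBR1, GCLM, GPX2, ME1, PGD, PIR and TXNRD1. Over the whole list it was present in 10 of 36 windows (27.8%), and in 1 of the 4 windows of members that fell, that of GSTM1. It was present in 13.6% of all 27305 windows and in 14.9% of those of genes tested. Among all genes with a window, 15.8% of those called higher and 13.5% of those called lower held it. The list was drawn up as NRF2 targets and oxidative stress genes, so a high share in it was not a result of these data. A match is a description and not a binding site. The 250 bases before the start of GCLM (chr1:93909431-93909680, minus strand) and TXNRD1 (chr12:104215529-104215778, plus strand) follow, 5′ to 3′, with the element in capitals.
GCLM: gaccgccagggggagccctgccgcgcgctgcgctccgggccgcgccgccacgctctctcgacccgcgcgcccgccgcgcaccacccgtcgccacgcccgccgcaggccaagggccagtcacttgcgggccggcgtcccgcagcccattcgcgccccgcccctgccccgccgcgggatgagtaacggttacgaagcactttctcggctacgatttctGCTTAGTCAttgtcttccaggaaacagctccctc
TXNRD1: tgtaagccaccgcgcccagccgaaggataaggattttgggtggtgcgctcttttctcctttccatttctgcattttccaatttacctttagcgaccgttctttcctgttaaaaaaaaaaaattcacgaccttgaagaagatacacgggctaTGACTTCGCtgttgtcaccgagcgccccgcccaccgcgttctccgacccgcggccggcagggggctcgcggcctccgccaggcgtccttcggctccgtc
The letters end close to the start in GCLM and lie farther upstream in TXNRD1.

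**Figure D3:**
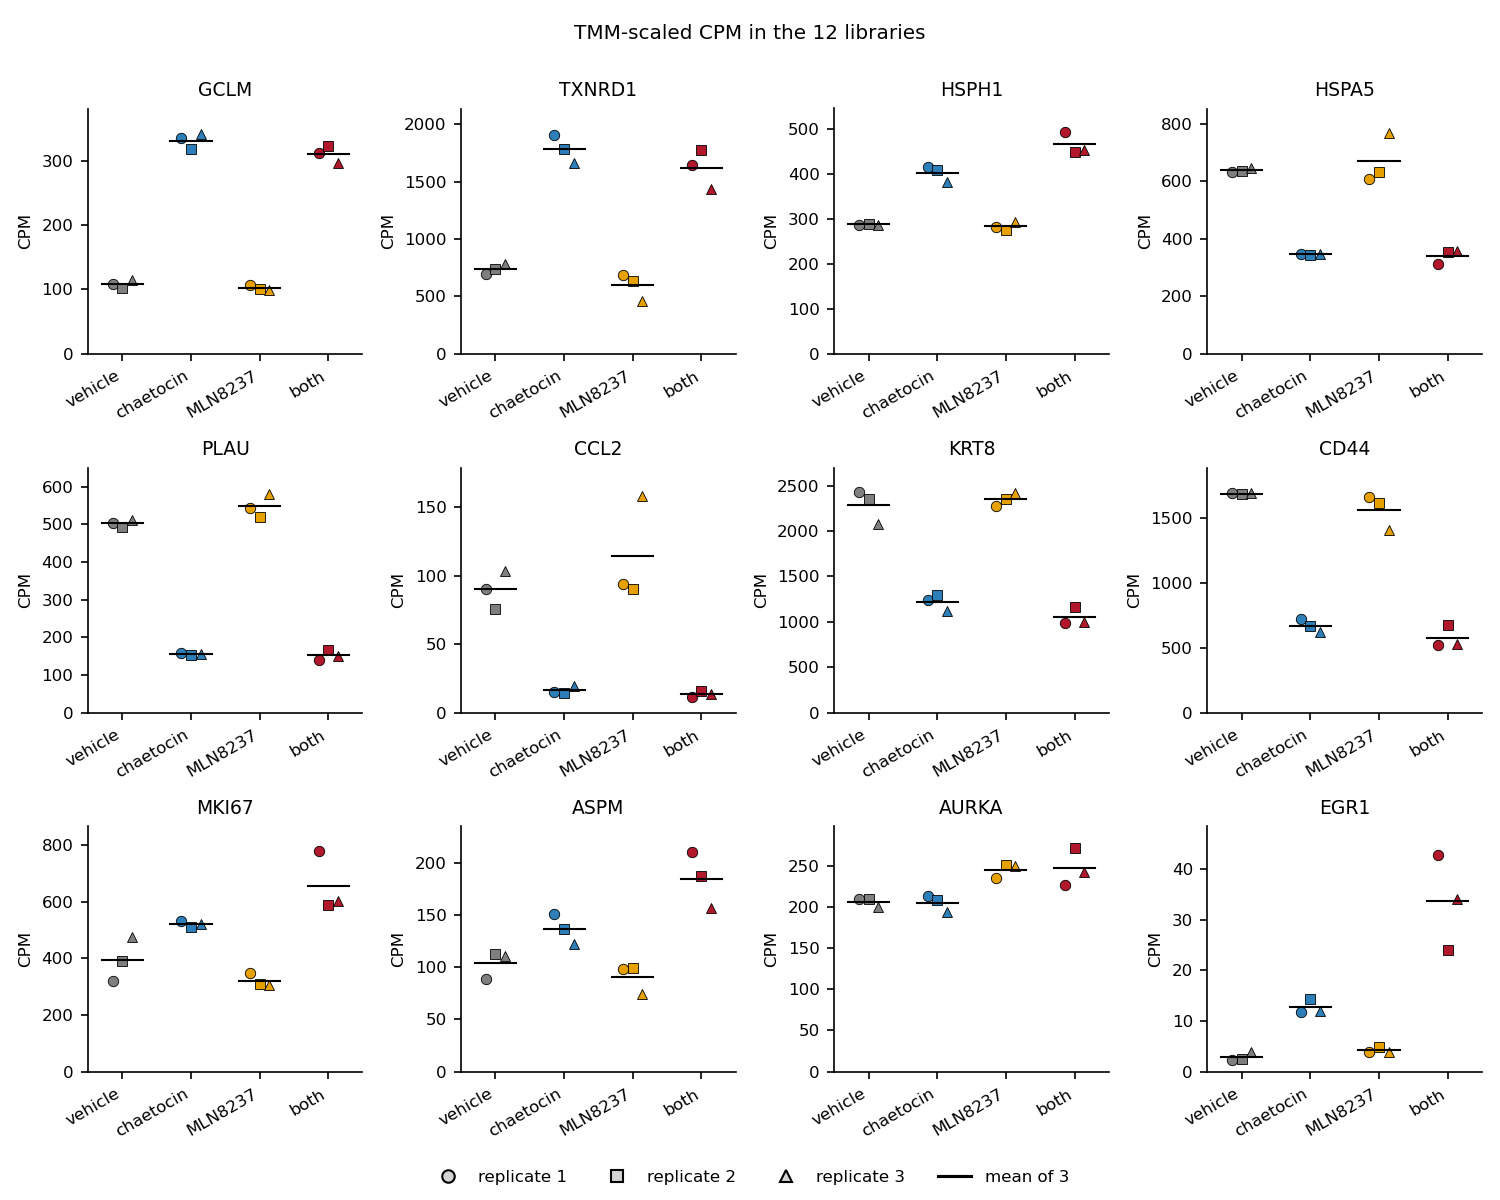
TMM-scaled CPM of 12 genes in all 12 libraries by group, with symbols for replicates 1, 2 and 3 and a line at the mean of 3; every axis starts at 0. GCLM, TXNRD1 and HSPH1 lie higher in the groups with chaetocin, HSPA5, PLAU, CCL2, KRT8 and CD44 lie lower, and AURKA overlaps between MLN8237 and both compounds.

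Of 31 cytosolic heat shock chaperones and partners 16 were higher and 1, HSPA4L, lower (median 0.28), with 18 and 1 without MLN8237 replicate 3. HSPH1, a nucleotide exchange factor of HSP70 (chr13:31710762-31736525), measured 281, 276 and 293 CPM with MLN8237 and 495, 449 and 455 CPM with both compounds. The groups were well separated (log2 fold change 0.72 ± 0.08, edgeR adjusted p = 2.5e-05, and 0.73 without MLN8237 replicate 3). The J-domain co-chaperones DNAJB4 and DNAJA4 and the HSP70 gene HSPA2 had larger log2 fold changes of 1.35 ± 0.10, 1.68 ± 0.14 and 1.38 ± 0.15. HSPA1A and HSPA1B, both called higher, are near-identical copies that may share reads. CHORDC1, an HSP90 co-chaperone, measured 148, 152 and 157 CPM with MLN8237 and 227, 209 and 224 CPM with both compounds (log2 fold change 0.53 ± 0.07, edgeR adjusted p = 1.2e-04, and 0.54 without MLN8237 replicate 3).

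CHORDC1 was the only 1 of 15 heat shock members that rose and had a promoter window in which the heat shock element was found, spelled here as GAA, TTC and GAA set apart by 2 bases of any kind, on either strand. In the whole list it was found in 4 of 27 windows. Over all windows the share was 0.487%, and over those of genes tested 0.391%. Its 250 bases before the start (chr11:90223050-90223299, minus strand, GRCh38.p14) hold 3 overlapping matches on both strands, in capitals.
CHORDC1: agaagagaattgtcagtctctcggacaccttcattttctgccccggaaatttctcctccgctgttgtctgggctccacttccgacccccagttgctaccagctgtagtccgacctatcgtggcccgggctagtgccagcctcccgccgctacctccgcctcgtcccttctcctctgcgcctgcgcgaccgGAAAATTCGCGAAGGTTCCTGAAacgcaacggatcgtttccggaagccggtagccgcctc
The matches run into each other, so the capitals form 1 block.

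Of 22 endoplasmic reticulum chaperones 11 were lower and 1, EDEM1, higher (median -0.29), and without MLN8237 replicate 3 the counts were 13 and 1. HSPA5, the HSP70 of that compartment (chr9:127997132-128003609), measured 607, 633 and 767 CPM with MLN8237 and 312, 354 and 356 CPM with both compounds. Every library with both compounds lay far below the MLN8237 libraries (log2 fold change -0.97 ± 0.10, edgeR adjusted p = 1.6e-05, and -0.88 without MLN8237 replicate 3). CALR, a calcium-binding lectin chaperone, measured 1062, 1028 and 1048 CPM with MLN8237 and 512, 506 and 534 CPM with both compounds (log2 fold change -1.02 ± 0.08, edgeR adjusted p = 2.4e-06, and -1.03 without MLN8237 replicate 3). The protein disulphide isomerase genes PDIA4 and PDIA6 had log2 fold changes of -0.81 ± 0.07 and -0.90 ± 0.10. The integrated stress response list was mixed, with 5 of 25 higher (ATF3, PPP1R15A, SLC3A2, SESN2 and CEBPB) and 4 lower (DDIT4, PSAT1, AARS and ATF4). Without MLN8237 replicate 3 the counts were 7 and 3. ATF3 and PPP1R15A rose by 2.06 ± 0.17 and 1.48 ± 0.17, while DDIT4 had a log2 fold change of -0.89 ± 0.17.

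Immediate early genes, the first transcripts to answer growth factor or stress signals, were higher in 18 of 34 members and lower in 2, with a median of 0.74. Without MLN8237 replicate 3 they were 18 and 5. EGR1, a zinc finger transcription factor (chr5:137801179-137805004), measured 3.97, 4.90 and 3.93 CPM with MLN8237 and 42.8, 24.1 and 34.1 CPM with both compounds. Combination replicate 1 was highest, and no library overlapped (log2 fold change 2.98 ± 0.23, edgeR adjusted p = 2.5e-06, and 2.92 without MLN8237 replicate 3). FOSB, an AP-1 subunit, and NR4A1, an orphan nuclear receptor, rose by 3.43 ± 0.23 and 3.32 ± 0.24. The 2 members that fell were CYR61 and CTGF, secreted matricellular proteins known as YAP targets. CYR61 measured 612, 633 and 659 CPM with MLN8237 and 278, 368 and 283 CPM with both compounds (log2 fold change -1.03 ± 0.11, edgeR adjusted p = 1.7e-05, and -1.02 without MLN8237 replicate 3). Despite the many risers, the summed level of the list overlapped between the groups, at 2224 to 2395 CPM with MLN8237 and 2237 to 2448 CPM with both.

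Of 33 measured secreted and NF-kB linked genes 17 were lower and 6 higher, with a median of -0.52, and without MLN8237 replicate 3 the counts were 16 and 5. PLAU, the urokinase plasminogen activator (chr10:75668935-75677255), measured 543, 520.5 and 580.4 CPM with MLN8237 and 139.5, 165 and 151 CPM with both compounds. The fall was of like size in each library with both compounds (log2 fold change -1.85 ± 0.09, edgeR adjusted p = 1.9e-07, and -1.82 without MLN8237 replicate 3). ICAM1, the leukocyte adhesion molecule (chr19:10381511-10397291), measured 203, 195 and 169 CPM with MLN8237 and 69.2, 64.2 and 67.5 CPM with both compounds (log2 fold change -1.50 ± 0.09, edgeR adjusted p = 6.3e-07, and -1.58 without MLN8237 replicate 3). CCL2 and CX3CL1, described above, belong here too. NFKBIA, which encodes the NF-kB inhibitor IkB-alpha, and BIRC3, an inhibitor of apoptosis, had log2 fold changes of -1.33 ± 0.14 and -1.09 ± 0.13. Among the 6 members that rose were IL1A, with a log2 fold change of 2.52 ± 0.33, and CCL20, which was not called without MLN8237 replicate 3 (adjusted p = 0.071).

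The NF-kB letters, GGG and TTCC with 3 bases of any kind between them on either strand, were found in 6 of 11 members that fell and had a promoter window, in 3 of 5 that rose, and in 6.47% of all windows. They were thus found on members of either direction. Among all genes with a window they were found in 7.36% of those tested, 6.08% of those called higher and 8.42% of those called lower. The list was drawn up to hold NF-kB linked genes, so a high share in it was not a result of these data. The windows of NFKBIA (chr14:35404750-35404999, minus strand) and BIRC3 (chr11:102317234-102317483, plus strand), 250 bases before the start in GRCh38.p14, are shown with the matches in capitals.
NFKBIA: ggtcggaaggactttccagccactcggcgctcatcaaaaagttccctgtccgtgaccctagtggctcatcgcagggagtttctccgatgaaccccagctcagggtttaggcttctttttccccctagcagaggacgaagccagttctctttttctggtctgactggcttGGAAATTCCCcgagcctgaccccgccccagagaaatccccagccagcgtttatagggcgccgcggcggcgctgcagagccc
BIRC3: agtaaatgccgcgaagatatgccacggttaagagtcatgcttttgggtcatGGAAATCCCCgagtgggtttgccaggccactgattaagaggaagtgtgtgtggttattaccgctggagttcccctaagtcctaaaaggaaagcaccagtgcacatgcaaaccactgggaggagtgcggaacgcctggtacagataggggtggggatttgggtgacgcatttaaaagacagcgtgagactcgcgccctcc
Both matches read on the strand opposite to the spelling given above.

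Keratin, adhesion and matrix transcripts of high level fell, while scarcer members such as LAMA3 and SNAI2 rose. Of 38 epithelial genes 13 were lower and 9 higher, or 15 and 10 without MLN8237 replicate 3. The simple epithelial keratins led: KRT8 (chr12:53290977-53343738) measured 2281, 2357 and 2415 CPM with MLN8237 and 992, 1168 and 1001 CPM with both compounds. All 3 libraries with both compounds lay far below (log2 fold change -1.16 ± 0.10, edgeR adjusted p = 6.1e-06, and -1.15 without MLN8237 replicate 3). Its partner KRT18 measured 1629, 1717 and 1978 CPM with MLN8237 and 681, 812 and 766 CPM with both compounds (log2 fold change -1.24 ± 0.10, edgeR adjusted p = 4.3e-06, and -1.16 without MLN8237 replicate 3). The spans of KRT8 and KRT18 overlap. CLDN1, a tight junction protein, had a log2 fold change of -1.81 ± 0.11, while LAMA3, a laminin chain of epithelial basement membrane, rose by 2.003 ± 0.16. The summed level of the list was 5505 to 6119 CPM with MLN8237 and 2879 to 3167 CPM with both.

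Of 45 mesenchymal and matrix genes 18 were lower and 11 higher, or 18 and 10 without MLN8237 replicate 3. Without combination replicate 1 they were 15 and 7, where 3717 of 23275 genes were called lower and 3942 higher. CD44, the hyaluronan receptor (chr11:35160417-35253949), measured 1661, 1611 and 1407 CPM with MLN8237 and 518, 676 and 526 CPM with both compounds (log2 fold change -1.44 ± 0.12, edgeR adjusted p = 3.2e-06, and -1.53 without MLN8237 replicate 3). SPARC, a collagen-binding matricellular protein, measured 119, 116 and 105 CPM with MLN8237 and 39.1, 39.3 and 39.2 CPM with both compounds, and its 3 libraries with both compounds were nearly equal. TGFBI and LOXL4 had log2 fold changes of -1.04 ± 0.08 and -1.44 ± 0.13. VIM, the mesenchymal filament protein, had a log2 fold change of -0.85 ± 0.12, while the transcription factor SNAI2, scarce in these libraries, rose by 3.40 ± 0.40. VIM and SNAI2 were named after their values were seen. Of 30 TGF-beta and YAP linked genes 11 were lower and 2 higher, the same counts as without MLN8237 replicate 3. EDN1, the peptide endothelin, measured 33.6, 34.8 and 34.0 CPM with MLN8237 and 15.4, 17.5 and 15.1 CPM with both compounds (log2 fold change -1.09 ± 0.08, edgeR adjusted p = 2.6e-06, and -1.11 without MLN8237 replicate 3), and TGFB3 had a log2 fold change of -1.13 ± 0.12. ANKRD1, known as a YAP target like CYR61 and CTGF, went the other way, with a log2 fold change of 2.69 ± 0.29.

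Of 32 members of the cholesterol list 16 were lower and 4 higher, with a median of -0.47 with all libraries and without MLN8237 replicate 3. Without that library 18 were lower and 4 higher. TM7SF2, a sterol reductase, MVD, which makes isopentenyl diphosphate, and CYP51A1, the lanosterol demethylase, had log2 fold changes of -1.18 ± 0.12, -0.97 ± 0.12 and -0.82 ± 0.10. CYP51A1 measured 152, 153 and 145 CPM with MLN8237 and 77.4, 98.8 and 77.9 CPM with both compounds, and the groups did not overlap. The members that rose were ABCA1, NPC1L1, NPC1 and HMGCS1. The first 3 move cholesterol across membranes or out of cells and HMGCS1 is an enzyme of its synthesis. ABCA1 measured 1.65, 1.47 and 1.34 CPM with MLN8237 and 7.95, 5.26 and 5.46 CPM with both compounds (log2 fold change 2.06 ± 0.20, edgeR adjusted p = 1.2e-05, and 1.98 without MLN8237 replicate 3).

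Of 77 mitotic genes 37 rose and 2 fell, with a median of 0.24, and without MLN8237 replicate 3 they were 31 and 1 with a median of 0.17. A fit to these 6 libraries by themselves called 22 higher and 1 lower, and over all genes 3789 of 21688 higher and 3456 lower. The summed level was 11424 to 12602 CPM with MLN8237 and 13686 to 15160 CPM with both. MKI67, the proliferation marker that coats mitotic chromosomes (chr10:129894923-129924649), measured 347, 309.9 and 305 CPM with MLN8237 and 778, 588 and 603 CPM with both compounds. Combination replicate 1 stood above replicates 2 and 3, which still lay above every MLN8237 library (log2 fold change 1.03 ± 0.14, edgeR adjusted p = 1.2e-04, and 0.99 without MLN8237 replicate 3). ASPM, a spindle pole protein (chr1:197053258-197115824), measured 97.8, 99.6 and 73.9 CPM with MLN8237 and 210.2, 187 and 157 CPM with both compounds (log2 fold change 1.03 ± 0.15, edgeR adjusted p = 1.5e-04, and 0.89 without MLN8237 replicate 3). SKA1, a kinetochore subunit, and BORA, an activator of Aurora A, had smaller and even changes of 0.60 ± 0.08 and 0.48 ± 0.08. The 2 that fell, SPC24 and CENPM, encode kinetochore proteins, and CENPM was not called without MLN8237 replicate 3 (adjusted p = 0.15).

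Cell cycle homology letters TTTGAA, on either strand, were found in the windows of 26 of 32 mitotic members that rose and had a window (81.3%). They were in 42 of 64 windows of the whole list (65.6%), in 15.4% of all windows and in 9.87% of windows of genes tested. Over all genes these letters were in 12.2% of windows of those called higher and 8.08% of those called lower. They are shown in capitals in the 250 bases before the start of MKI67 (chr10:128126424-128126673, minus strand) and ASPM (chr1:197146670-197146919, minus strand), in GRCh38.p14.
MKI67: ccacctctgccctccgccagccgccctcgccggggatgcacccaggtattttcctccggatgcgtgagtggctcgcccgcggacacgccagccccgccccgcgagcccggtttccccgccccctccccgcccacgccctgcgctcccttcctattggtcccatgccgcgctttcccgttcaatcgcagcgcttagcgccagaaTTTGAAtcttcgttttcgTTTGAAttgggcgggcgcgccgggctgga
ASPM: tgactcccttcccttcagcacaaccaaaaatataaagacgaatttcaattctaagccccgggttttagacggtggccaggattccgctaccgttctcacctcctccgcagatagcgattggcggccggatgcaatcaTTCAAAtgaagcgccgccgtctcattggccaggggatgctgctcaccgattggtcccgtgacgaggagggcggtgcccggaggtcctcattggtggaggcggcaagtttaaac
MKI67 holds 2 matches and ASPM 1, which reads on the opposite strand.

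Of 64 members of the G1/S and DNA replication list 18 (beside 22.7% of all genes) were lower and 7 (beside 23.3%) higher, with a median of -0.10, and without MLN8237 replicate 3 the counts were 18 and 5. Without combination replicate 1 they were 9 and 4, and in the fit to these 6 libraries by themselves 7 and 5. Over all genes those fits called 3717 of 23275 and 3456 of 21688 lower, and 3942 and 3789 higher. CDC45, a subunit of the replicative helicase, measured 33.4, 33.2 and 40.2 CPM with MLN8237 and 20.7, 27.0 and 22.2 CPM with both compounds (log2 fold change -0.61 ± 0.11, edgeR adjusted p = 7.6e-04, and -0.53 without MLN8237 replicate 3). POLE2, a DNA polymerase epsilon subunit, had a log2 fold change of -0.54 ± 0.11. Cyclin E1 (CCNE1) and the repressor E2F7 rose by 0.44 ± 0.09 and 0.97 ± 0.18. The DNA repair list held 15 of 45 higher and 9 lower. Without MLN8237 replicate 3 the counts were 13 and 8, and without combination replicate 1 they were 9 and 6. BRCA2 measured 22.0, 18.9 and 18.2 CPM with MLN8237 and 67.5, 43.6 and 45.3 CPM with both compounds (log2 fold change 1.40 ± 0.17, edgeR adjusted p = 4.8e-05, and 1.34 without MLN8237 replicate 3), and RMI2 had a log2 fold change of -1.25 ± 0.17.

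**Figure D4:**
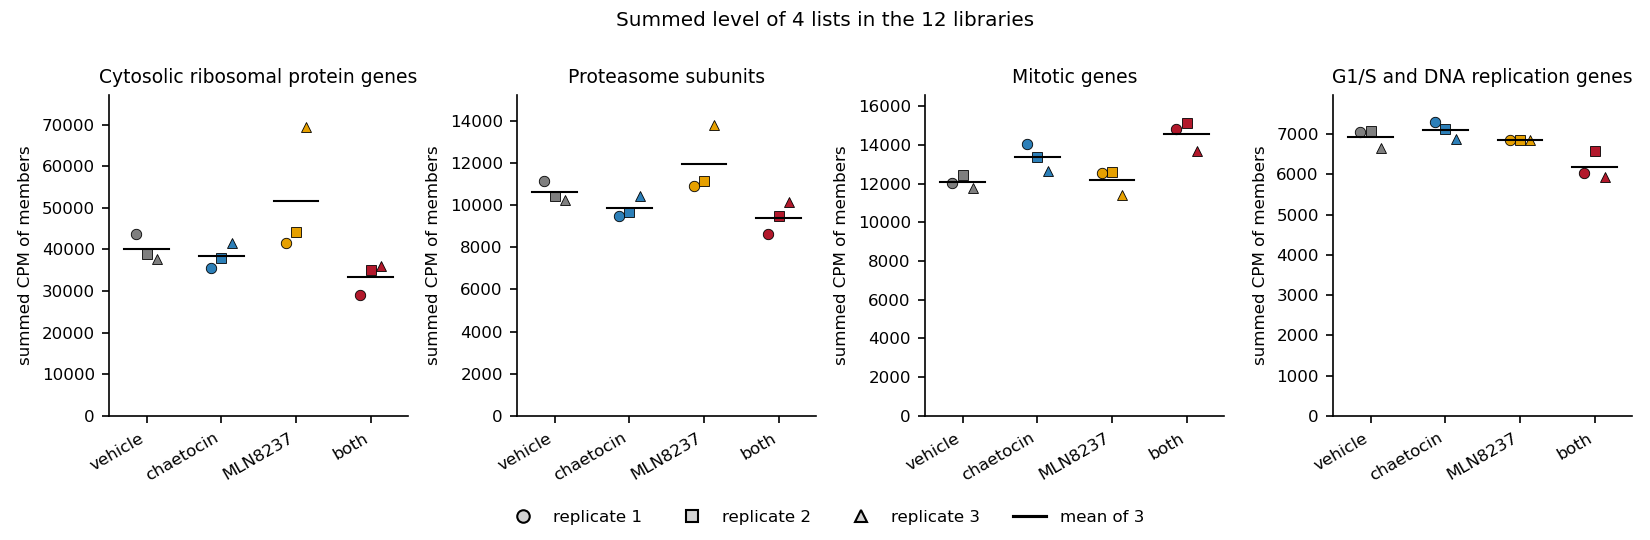
Summed CPM of the members of 4 lists in each of the 12 libraries, by group, with a line at the mean of 3 and axes from 0. MLN8237 replicate 3 stands at 69296 CPM for ribosomal protein genes, above all other libraries (28975 to 44082), and at 13825 CPM for proteasome subunits.

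Ribosomal protein genes were lower in 75 of 79 members and higher in none by edgeR, DESeq2 or limma-voom, also at an unadjusted p under 0.05. The median of the list was -0.63 with all libraries and -0.37 without MLN8237 replicate 3, when 62 of 79 were lower. Without combination replicate 1, 39 were lower, and in the fit to these 6 libraries by themselves 40. Their summed level was 41647, 44082 and 69296 CPM in MLN8237 replicates 1, 2 and 3, and 28975, 35000.3 and 36103 CPM with both compounds. The 3 libraries with both compounds lay below all 3 MLN8237 libraries, of which replicate 3 was far the highest. RPL4, of the large subunit (chr15:66790355-66816870), measured 1204, 1269 and 1541 CPM with MLN8237 and 688, 910.5 and 779.6 CPM with both compounds (log2 fold change -0.76 ± 0.12, edgeR adjusted p = 2.6e-04, and -0.65 without MLN8237 replicate 3). RPS29, of the small subunit, measured 250.4, 267 and 461 CPM with MLN8237 and 136, 178 and 169.8 CPM with both compounds (log2 fold change -1.01 ± 0.20, edgeR adjusted p = 0.0014, and -0.69 without MLN8237 replicate 3). Many ribosomal protein genes have processed pseudogenes that could share their reads.

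Proteasome subunits were lower in 21 of 39 members, with a median of -0.34, and in 18 without MLN8237 replicate 3 (median -0.19). None was higher by edgeR, DESeq2 or limma-voom, and 1 was at an unadjusted p under 0.05. Without combination replicate 1, 9 were lower, and in the fit to these 6 libraries by themselves 8. Over all genes those fits called 3717 of 23275 and 3456 of 21688 lower. PSMB6, a catalytic core subunit, measured 163, 178 and 323 CPM with MLN8237 and 77.0, 105 and 107 CPM with both compounds (log2 fold change -1.20 ± 0.21, edgeR adjusted p = 7.3e-04, and -0.84 without MLN8237 replicate 3). Metallothioneins and zinc response genes were lower in 5 of 11 and higher in 2, or 5 and 3 without MLN8237 replicate 3. MT2A measured 677, 719 and 1353 CPM with MLN8237 and 279, 322 and 334 CPM with both compounds (log2 fold change -1.56 ± 0.22, edgeR adjusted p = 1.3e-04, and -1.17 without MLN8237 replicate 3). The zinc exporter SLC30A1 measured 53.6, 51.0 and 46.3 CPM with MLN8237 and 9.96, 21.0 and 5.82 CPM with both compounds, so that it did not share the high level of MT2A in MLN8237 replicate 3. The 2 members that rose with all libraries were MTF1, which encodes the zinc-sensing factor of these genes, and MT1M.

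Gene length moved with the comparison. Among genes of at least 1 CPM the median log2 fold change was -0.20 at 1000 to 2000 bases and 0.11 at 8000 bases or more, and without MLN8237 replicate 3 it was -0.10 and 0.03. Genes over 10 kb took 8.29%, 7.86% and 6.51% of counts with MLN8237 and 9.84%, 9.01% and 8.09% with both compounds. With each library's trend on gene length taken out, an alternative added after the data were seen, 74 ribosomal protein genes were lower. The mitotic list then held 43 higher and 2 lower, the proteasome list 19 lower, and the G1/S list 9 higher and 16 lower. Over all genes that fit called 5588 of 22831 higher and 5339 lower. With MLN8237 replicate 3 also left out, 60 ribosomal protein genes and 16 proteasome genes were lower. The mitotic list held 39 higher and 1 lower, and the G1/S list 9 higher and 16 lower. Over all genes 5586 of 23643 were then higher and 5170 lower.

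The filter was passed by 50 of 79 histone genes, and of these 30 were higher and 6 lower, with a median of 1.19. Without MLN8237 replicate 3 the counts were 27 and 6 and the median 1.07. Scarce members could pass through the group where they were high. All risers but H2AFX came from the histone clusters of chromosomes 6 and 1, whose genes are mostly replication-dependent and give transcripts that normally lack a poly(A) tail. The fallers were H1F0, H1FX, H3F3A, H2AFJ, H2AFV and H2AFY2, which are linker or variant histones. HIST1H3B measured 0.386, 0.351 and 0.285 CPM with MLN8237 and 3.94, 2.05 and 4.46 CPM with both compounds (log2 fold change 3.34 ± 0.32, edgeR adjusted p = 1.1e-05, and 3.22 without MLN8237 replicate 3). H1F0, the replacement linker histone (chr22:38201114-38203442), measured 136, 141 and 162 CPM with MLN8237 and 58.8, 66.3 and 62.8 CPM with both compounds (log2 fold change -1.23 ± 0.08, edgeR adjusted p = 1.4e-06, and -1.16 without MLN8237 replicate 3). The summed level overlapped between groups, at 2075 to 2812 CPM with MLN8237 and 1816 to 2238 CPM with both. Clustered histone genes are near copies of each other, so that reads may be split between them.

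Writers and erasers of H3K9 methylation moved both ways, with 11 of 35 higher and 8 lower, beside 23.3% and 22.7% of all genes tested. Both counts were the same without MLN8237 replicate 3. ATF7IP, a partner of the methyltransferase SETDB1, measured 19.9, 18.1 and 10.6 CPM with MLN8237 and 55.3, 37.7 and 38.1 CPM with both compounds (log2 fold change 1.43 ± 0.21, edgeR adjusted p = 2.1e-04, and 1.19 without MLN8237 replicate 3). The demethylase genes KDM4D and KDM7A rose by 1.39 ± 0.20 and 1.16 ± 0.19, and the deacetylase gene HDAC1 had a log2 fold change of -0.50 ± 0.08. In the Polycomb and DNA methylation list, 8 of 36 were higher and 7 lower, again near the background. Without MLN8237 replicate 3 they were 6 and 9. KDM6B, the H3K27 demethylase gene (chr17:7743222-7758114), measured 10.6, 10.2 and 6.17 CPM with MLN8237 and 59.0, 33.7 and 48.8 CPM with both compounds (log2 fold change 2.39 ± 0.24, edgeR adjusted p = 1.6e-05, and 2.16 without MLN8237 replicate 3). TET3, a 5-methylcytosine oxidase, rose by 1.41 ± 0.17, while the Polycomb gene RING1 had a log2 fold change of -1.02 ± 0.13.

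Germline genes, normally silent in somatic cells, could be tested for 27 of 78 in the table. Of these, 16 were higher and 1, SYCP3, lower, and the counts were the same without MLN8237 replicate 3. Since scarce genes passed the filter mostly through the group where they are high, the count is a description of those that passed. SSX1, a cancer-testis antigen of the X chromosome, had 2 counts over the MLN8237 libraries and measured 2.83, 1.54 and 2.79 CPM with both compounds. MEIOB and TEX14, meiotic genes, and TEX19 had log2 fold changes of 2.81 ± 0.32, 3.11 ± 0.37 and 2.75 ± 0.33. Among all genes, 321 tested had at most 3 counts over the 3 MLN8237 libraries, and 315 of them were called higher. Genes this scarce passed the filter through other groups, so the call was nearly fixed in advance. Of the 315, 158 were protein coding and 96 long non-coding. The 309 also called without MLN8237 replicate 3 were picked by the same rule. The median level of the 315 with both compounds was low, at 0.336 CPM. Only 2 genes tested had at most 3 counts over the combination libraries, SPEF2 and RP3-355L5.5, and both were called lower. The numbers 315 and 2 thus describe which genes passed the filter.

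The highest of the 315 was KRT6A, at 0, 0.0207 and 0 CPM with MLN8237 and 5.31, 8.66 and 2.08 CPM with both compounds. It was erratic outside this comparison, at 0, 0 and 15.3 CPM with vehicle and 9.65, 0 and 7.95 CPM with chaetocin, and was not called without MLN8237 replicate 3 (adjusted p = 0.18). DDC, which encodes the decarboxylase that makes dopamine and serotonin (chr7:50526134-50633154), had no count with MLN8237 and measured 3.97, 1.92 and 4.47 CPM with both compounds. FTCD, an enzyme of histidine breakdown, measured 0, 0.0413 and 0 CPM with MLN8237 and 5.26, 1.77 and 5.26 CPM with both compounds. The long non-coding RNA RP1-27K12.2 measured 0, 0.0207 and 0 CPM with MLN8237 and 5.20, 2.73 and 3.79 CPM with both compounds and lies over GCLC, which rose in the same libraries, so that its reads may belong to GCLC.

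Interferon-stimulated genes were lower in 25 of 62 and higher in 12, the same counts as without MLN8237 replicate 3. Among those of smallest p, TAP1, a peptide transporter subunit, measured 106, 109.7 and 97.9 CPM with MLN8237 and 49.3, 58.3 and 49.6 CPM with both compounds (log2 fold change -0.99 ± 0.09, edgeR adjusted p = 7.0e-06, and -1.05 without MLN8237 replicate 3). PSMB9, an immunoproteasome subunit whose span overlaps TAP1, and IFI35 had log2 fold changes of -1.46 ± 0.15 and -1.28 ± 0.15. HERC5, a ligase for the ubiquitin-like ISG15, rose by 1.04 ± 0.12. Apoptosis regulators were split, with 11 of 44 higher and 14 lower, or 12 and 12 without MLN8237 replicate 3. Without combination replicate 1 they were 11 and 6, where 3942 of 23275 genes were called higher and 3717 lower. TNFRSF10D, a decoy receptor for the death ligand TRAIL (chr8:22993101-23021543), measured 8.07, 8.22 and 5.95 CPM with MLN8237 and 56.2, 32.6 and 49.7 CPM with both compounds (log2 fold change 2.64 ± 0.19, edgeR adjusted p = 1.7e-06, and 2.49 without MLN8237 replicate 3). PMAIP1, which encodes the pro-apoptotic NOXA, rose by 1.14 ± 0.15. In the p53 list 9 of 34 were higher and 6 lower, or 12 and 8 without MLN8237 replicate 3. PERP, a desmosomal protein, measured 1118, 1174 and 1242 CPM with MLN8237 and 372, 484 and 401 CPM with both compounds, and TP53INP1 rose by 1.63 ± 0.21.

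Markers of cell types were read to check the label and the purity of the line. The ductal keratin KRT19 measured 398, 447 and 689.8 CPM with MLN8237 and 153, 174 and 207 CPM with both compounds, and of 11 ductal markers tested 6 fell and 2 rose. Of acinar markers CPB1, PNLIP and REG1A were at 0 in all 6 libraries. So were INS for endocrine, EMCN for endothelial and MS4A1 for immune cells, and the ductal marker SCTR. INS was the only 1 of 16 endocrine markers at 0. The 16 summed to 14.3 to 18.3 CPM with MLN8237 and 16.0 to 20.2 CPM with both compounds. Of the 8 endocrine markers tested 3 were higher and 2 lower. The summed acinar markers were at most 1.40 CPM in either group. Immune markers summed to 173 to 204 CPM with MLN8237 and 170.2 to 238 CPM with both. CD68, a lysosomal protein, made up most of that sum at 169.9, 169 and 200.4 CPM with MLN8237 and 179, 165 and 228 CPM with both compounds, and it was not called. PTPRC, the leukocyte marker CD45, was at 0, 0 and 0.0439 CPM with MLN8237 and 0.903, 0.402 and 0.697 CPM with both. CSF1R, ITGAM and LYZ were called higher too, but the groups overlapped for ITGAM and LYZ, and LYZ was not called without MLN8237 replicate 3 (adjusted p = 0.091). Of the 8 immune markers tested 4 were called, and 2 without combination replicate 1. Endothelial markers summed to 37.0 to 45.2 CPM with MLN8237 and 37.1 to 40.8 CPM with both, with VWF and ERG higher and ENG lower. Fibroblast markers summed to 63.5 to 73.2 CPM with MLN8237 and 37.3 to 53.1 CPM with both, and COL1A1 and THY1 fell. What part other cells have in any result was not tested.

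Transcription factors of pancreas and foregut were split, with 9 of 25 higher and 7 lower, or 8 and 7 without MLN8237 replicate 3. PAX5, a B-lineage factor kept in this list with its family (chr9:36833272-37034103), measured 0.680, 0.620 and 0.658 CPM with MLN8237 and 14.8, 7.38 and 11.7 CPM with both compounds (log2 fold change 4.11 ± 0.25, edgeR adjusted p = 8.2e-07, and 4.10 without MLN8237 replicate 3). PDX1, the pancreatic identity factor, measured 4.98, 4.96 and 5.09 CPM with MLN8237 and 1.91, 2.71 and 2.11 CPM with both compounds (log2 fold change -1.16 ± 0.15, edgeR adjusted p = 9.8e-05, and -1.16 without MLN8237 replicate 3).

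MLN8237 replicate 3 decided some calls. Of the genes that passed only with it, MTX3, a mitochondrial import protein, measured 12.2, 10.1 and 4.06 CPM with MLN8237 and 33.8, 23.2 and 14.2 CPM with both compounds, and its adjusted p was 0.012 with the library and 0.06 without it. MAML1, MTFR2, GUSBP11 and PLEKHA2 were the other genes of smallest p lost among the gains. TPGS1, FAM174A, ZSCAN16-AS1, JOSD2 and RP11-727F15.12 were those among the losses, and for each of these 5 MLN8237 replicate 3 was the highest library.

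FTH1, the heavy chain of ferritin (chr11:61727190-61735132), measured 949, 956 and 2060.5 CPM with MLN8237 and 1498, 1776 and 2023 CPM with both compounds. MLN8237 replicate 3 lay above the 3 combination libraries and replicates 1 and 2 below them. FTH1 was not called with all libraries (log2 fold change 0.42 ± 0.26, edgeR adjusted p = 0.2) and was called without MLN8237 replicate 3 (log2 fold change 0.88, adjusted p = 5.5e-04). Its pseudogenes FTH1P10 and FTH1P2 and the overlapping gene BEST1 had the same pattern and may share its reads. Among losses gained without that library were ACTN1, an actin crosslinker, at 385, 362 and 225 CPM with MLN8237 and 257, 275 and 248 CPM with both compounds, and PRKACA, a catalytic subunit of protein kinase A, with adjusted p of 0.073 and 3.1e-04. In ACTN1 the low library was again MLN8237 replicate 3.

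The same addition of chaetocin was measured without MLN8237, in 6 libraries outside the groups compared above, though the fit used them for its spread. Chaetocin against vehicle changed 5591 genes (24.5%), 2874 higher (12.6%) and 2717 lower (11.9%). Of the genes higher here, 2458 were also called higher there, which is 46.3% of the genes higher here and 85.5% of those higher there. Of the genes lower here, 2297 were also called lower there, or 44.4% and 84.5%. PRDM10 was the only gene called in opposite directions, with a log2 fold change of 0.36 ± 0.11 here and -0.48 there (edgeR adjusted p = 0.02 and 0.008). Signs were the same in 95.2% of the genes higher here and 94.0% of the genes lower here, and across all genes tested the log2 fold changes had a Pearson correlation of 0.828, which describes genes and not replicates. Genes called higher there had a median of 1.13 here and 1.02 there, and genes called lower -0.70 and -0.62.

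**Figure D5:**
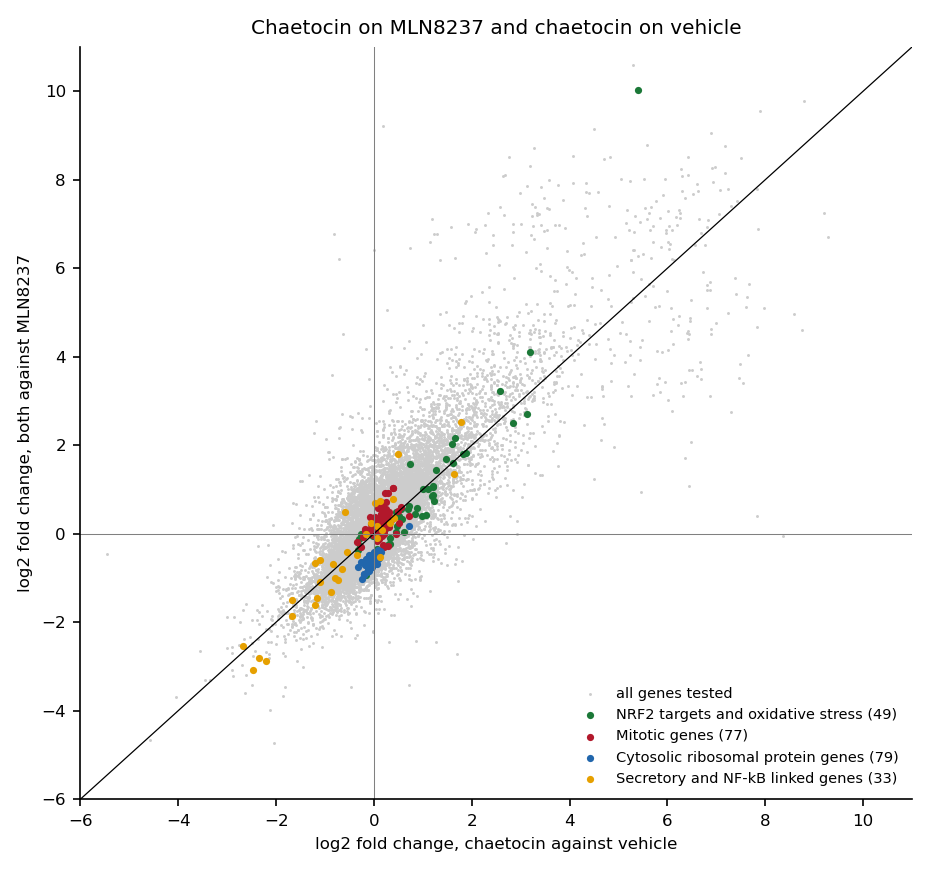
Each grey point is a gene tested, with its log2 fold change for chaetocin against vehicle on the horizontal axis and for both compounds against MLN8237 on the vertical axis, and the line marks equal values. NRF2 (green) and secretory genes (orange) scatter along the line, mitotic genes (red) have medians of 0.17 and 0.24 on the 2 axes, and ribosomal protein genes (blue) have medians of -0.05 and -0.63. A gene with a more extreme value, 1 of 22831, lies outside the axes.

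The number of calls does not rank the 2 additions: fitted to its own 6 libraries, each comparison gave 7245 genes here and 7657 for chaetocin against vehicle. The difference between them was tested directly. No gene passed (0.0% of 22831; smallest edgeR adjusted p 0.063), and 3108 genes (13.6%) had an unadjusted p under 0.05. By DESeq2 15 genes passed, 11 higher and 4 lower (RP3-375P9.2, EDN1, CTGF and ZNF467), by limma-voom none, and without MLN8237 replicate 3 the smallest edgeR adjusted p was 0.135. The median standard error of the difference was 0.25 on the log2 scale, so small differences were not detectable. By smallest p, the leading genes were RP3-375P9.2, a pseudogene, with a difference of -4.14 ± 0.53, and PRDM10, RAG1 and IKZF3 with 0.83 ± 0.16, 2.17 ± 0.40 and 3.15 ± 0.55. EDN1 and CTGF had differences of -0.55 ± 0.12 and -0.58 ± 0.13, and CTGF measured 186, 182 and 190.4 CPM with vehicle and 181, 184 and 189.7 CPM with chaetocin.

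The counts of the lists stand beside 23.3% higher and 22.7% lower of all genes here, and 12.6% and 11.9% for chaetocin against vehicle. NRF2 targets were higher in 28 of 49 members here and in 31 with chaetocin against vehicle. Heat shock chaperones were higher in 16 of 31 in both, and endoplasmic reticulum chaperones lower in 11 of 22 in both. Mitotic genes were higher in 37 of 77 here and 17 there, and G1/S genes lower in 18 of 64 here and 0 there by edgeR, where 1 was lower at an unadjusted p under 0.05 and 0 passed by DESeq2. The median difference was 0.09 for mitotic and -0.24 for G1/S genes, or 0.04 and -0.22 without MLN8237 replicate 3. None of either list passed the edgeR test of the difference. At an unadjusted p under 0.05, 9 mitotic genes were higher and 5 lower, and 1 G1/S gene was higher and 20 lower. Ribosomal protein genes were lower in 75 of 79 here and 0 there, where 1 was lower at an unadjusted p under 0.05 and 1 passed by DESeq2. For them the median difference was -0.58, or -0.31 without MLN8237 replicate 3, and all 79 members lay below 0, but none passed the edgeR test of the difference (smallest adjusted p 0.36), while 58 were at an unadjusted p under 0.05. Their summed level with vehicle was 37785 to 43705 CPM, a range that overlaps the MLN8237 libraries, and with chaetocin 35634 to 41538 CPM, which overlaps the libraries with both compounds.

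Scarce genes were called higher more often than abundant ones, in a table whose filter lets a gene pass through 1 group. At a mean of 0.1 to 1 CPM, 29% of genes were higher and 5.52% lower, and at 100 CPM or more 11.3% were higher and 41.5% lower. Of 4273 long non-coding genes 1150 were higher and 589 lower, and of 14812 protein-coding genes 3461 and 4147. The 3 libraries with both compounds were not equally far from MLN8237: replicate 2 was the nearest of its group to the MLN8237 libraries in 66.8% of genes called higher and 59.9% of genes called lower. Without combination replicate 1, the farthest, 7659 genes were called.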

How the data were processed

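The deposited table holds, per the file headers, raw counts and RPKM values of each gene in the 12 libraries, gene positions and gene lengths. The submitters' processing notes name CASAVA 1.9, HTSeq, TopHat 12.0.6 and the build hg19. No source used here says whether strand was counted. Counts were fitted as deposited with edgeR 4.0.16 (R 4.3.3): default filter by group, TMM scaling, 4 group means over 12 libraries, robust quasi-likelihood F test, Benjamini-Hochberg adjustment over all genes tested, calls at an adjusted p under 0.05. The script was tested on simulated data. CPM values are TMM-scaled. The deposited RPKM values served only to recover each library's scaling total.

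The comparison and the gene lists were chosen with earlier results of these data known, so lists carry no test. Genes were named by rule: the 15 largest changes each way with at least 5 CPM, no overlap between groups and a call also without MLN8237 replicate 3; the 5 smallest p each way lost or gained without it; up to 4 members of each list; 5 target genes; the 3 smallest p each way for the difference; and the 5 highest genes with at most 3 counts in the other group. Other genes were named after their values were seen, and a few genes are not reported here. Gene types came from a newer annotation by identifier (95.4% of genes tested). Promoter windows came from RefSeq by symbol (11516 genes tested matched). Alternatives were other scaling, filters, DESeq2 1.42.0, limma-voom (limma 3.58.1), a replicate block, subsets of groups and each library left out. Gene length offsets, and the 2 groups fitted by themselves without MLN8237 replicate 3, were added after the data were seen.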

Additional observations from a re-analysis of the deposited data

Results flagged for a closer look

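The share of each library's deposited RPKM scaling total that lay outside the summed gene counts was higher with both compounds. It was 4.47%, 3.5% and 4.22% in combination replicates 1, 2 and 3, above all MLN8237 libraries, at 1.82%, 1.59% and 1.74%. An exact two-sided permutation test gave p = 0.1 for 3 against 3 libraries, the smallest p this design allows. With chaetocin the share was 3.10% to 3.66% and with vehicle 1.39% to 3.36%. No source used here says what that total comprises.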

How the results depend on the processing

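For both compounds against MLN8237, the count of 10487 genes ranged from 7245 (only the groups compared) to 11768 over alternatives that kept the threshold, and from 7659 to 10542 with 1 library left out. Requiring an absolute log2 fold change of at least 1 left 3846 genes, 72.5% of them higher, against 50.6% in the main count. For chaetocin against vehicle, 5591 genes became 7657 with only the groups compared, 8096 without both libraries numbered 3 of the groups treated with MLN8237, 7577 without the 3 treated libraries numbered 3, 6798 with the replicate block and 6492 with DESeq2. Leaving out 1 library gave 3704 (without vehicle replicate 2) to 4705 genes, and the fold threshold left 1989. The difference between the additions gave 2 genes with no filter (RP3-375P9.2 and ZSCAN12P1), 15 with DESeq2, and 0 in each leave-one-out fit. The cause was not tested. With the replicate number as a block, 11768 genes were called (6003 higher, 5765 lower), 10573 when MLN8237 replicate 3 was also left out, and 0 for the difference. Deviations of same-numbered MLN8237 and combination libraries correlated at 0.318, 0.0930 and 0.436, and those of unlike numbers at -0.365 to 0.180. Chaetocin replicate 3 correlated at 0.441 with MLN8237 replicate 3 and at 0.462 with combination replicate 3. The treated libraries numbered 3 thus shared part of their deviations. MLN8237 replicate 2 had 0.180 with combination replicate 1 and 0.0930 with combination replicate 2. Numbers were not taken as pairs in the main fit, and the block is given beside it. Of 194 named genes 13 lost their call without MLN8237 replicate 3 and 10 gained one, and none reversed in any setting. The genes named by size were chosen to be called without it. Depth limits the scarcest genes, and the floor of 3 counts over a group lies far below 1 CPM. CSF1R had 2 counts over the MLN8237 libraries at a mean of 0.0138 CPM. With both compounds it had 175 at 0.964 CPM.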

Other observations

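Lysosome and autophagy genes were split, with 15 of 45 higher and 12 lower, or 14 and 12 without MLN8237 replicate 3. OPTN, an autophagy receptor, measured 95.6, 96.2 and 108 CPM with MLN8237 and 44.7, 52.5 and 55.4 CPM with both compounds (log2 fold change -0.97 ± 0.10, edgeR adjusted p = 1.4e-05, and -0.93 without MLN8237 replicate 3). TFEB, a transcription factor of lysosomal genes, and the sialidase NEU1 had log2 fold changes of -1.32 ± 0.20 and -0.75 ± 0.12, while GABARAPL1, of the LC3 family, rose by 0.95 ± 0.13. Fatty acid synthesis genes were lower in 10 of 22 and higher in 5 (ACSL1, ACSL4, ELOVL6, GPAM and ME1), or 9 and 3 without MLN8237 replicate 3. Without combination replicate 1 they were 6 and 3, where 3717 of 23275 genes were called lower and 3942 higher. ELOVL1, MLXIPL and SCD5 had log2 fold changes of -0.49 ± 0.10, -1.08 ± 0.17 and -0.70 ± 0.15.

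Glycolysis and hypoxia genes were lower in 14 of 41 and higher in 7, or 16 and 8 without MLN8237 replicate 3. Without combination replicate 1 they were 9 and 7, where 3717 of 23275 genes were called lower and 3942 higher. SLC2A1, the glucose transporter GLUT1 (chr1:43391052-43424530), measured 38.1, 36.7 and 33.6 CPM with MLN8237 and 84.4, 72.4 and 83.2 CPM with both compounds (log2 fold change 1.15 ± 0.09, edgeR adjusted p = 2.9e-06, and 1.09 without MLN8237 replicate 3). NDRG1, known to rise in low oxygen, had a log2 fold change of 2.19 ± 0.23, and the collagen prolyl hydroxylase P4HA1 one of -0.66 ± 0.08.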
